A study of Capra hircus with 2 samples.

Results

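The smooth muscle contractile genes described here were ACTA2, ACTG2, MYH11, CNN1 and PCP4, 5 of the 27137 features of the count matrix. They were chosen by symbol, and each symbol stood once in the matrix, paired with its NCBI gene ID (102191486, 102178279, 102177493, 102190599 and 102179523, in that order). Contractile cells pull actin filaments along myosin, and a rise in calcium sets this off through calmodulin and the phosphorylation of the myosin light chain. Skin holds several such cells: the arrector pili muscle of the hair follicle, the smooth muscle of vessel walls, pericytes around capillaries, and the myoepithelial cells of sweat glands, which are epithelial cells that make keratins and smooth muscle proteins at once. ACTA2 encodes smooth muscle alpha-actin, the actin of vessel walls, myoepithelial cells and myofibroblasts. ACTG2 encodes the smooth muscle gamma-actin best known from the gut wall. MYH11 is the smooth muscle myosin heavy chain, CNN1 is calponin, an actin-binding brake on the myosin motor, and PCP4 is a small peptide that binds calmodulin. ACTA2 and ACTG2 encode nearly the same protein, and how reads that match both were assigned is not given in the sources used here, so the split of counts between the 2 actins is uncertain.

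The study compared scapular skin of 2 healthy Liaoning cashmere goats in anagen, the growth phase of the hair cycle, one with coarse fibre (CT-LCG) and one with fine fibre (FT-LCG). The skin had been freed of fat, dissociated, cleared of red and dead cells, and sequenced with the 10x Chromium 3' kit (V3). No source used here gives the age of the goats. The labels do not say which of the 2 samples is which goat, and cells were assigned to CT-LCG or FT-LCG by the authors' list of kept cells. With 1 library of 1 goat per fibre type there was no replicate, so no test was possible, and goat, library and fibre type cannot be told apart.

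The list held 3443 CT-LCG and 9608 FT-LCG cells, with a median of 2314 and 6121.5 unique molecular identifiers (UMIs, one per captured transcript). The cells of the 2 libraries had 11 barcode sequences in common, and 0 contractile cells carried one of them. Levels are summed UMIs per 10000 UMIs of the same cells. Every interval is a 95% interval of the counting error only (Poisson for levels, Clopper-Pearson for shares, exact conditional for ratios), and it understates the error where a few cells hold most UMIs. Counts of different genes are not compared with each other as transcript levels, since 3' capture differs between genes.

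Taken over all cells, ACTA2 was higher in FT-LCG and ACTG2 was nearly level. ACTA2 had 281 UMIs in CT-LCG, a level of 0.101 per 10000 (0.0893 to 0.113), and 1558 UMIs in FT-LCG, a level of 0.182 (0.173 to 0.192). The log2 ratio of FT-LCG over CT-LCG was 0.85 (0.67 to 1.05). ACTG2 had 243 and 777 UMIs, levels of 0.0871 and 0.0910 per 10000, with a log2 ratio of 0.06 (-0.15 to 0.28). The 2 actins therefore did not move together between the libraries when UMIs were summed.

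MYH11 showed the widest gap of the 5 genes, with 59 UMIs in CT-LCG against 708 for FT-LCG and a log2 ratio of 1.96 (1.59 to 2.38). CNN1 had 94 and 638 UMIs and a log2 ratio of 1.14 (0.83 to 1.48). PCP4 had 23 and 112 UMIs and a log2 ratio of 0.64 (0.01 to 1.38). MYH11 and CNN1, 2 of the 5 genes, were at least 2-fold higher in FT-LCG, against 8.31% of the 13014 genes with at least 100 UMIs, and 0 of the 5 were 2-fold lower, against 7.25%. The median log2 ratio over those genes was 0.03, and that of RGS5, the pericyte gene used to mark mural cells, was 0.02 (-0.33 to 0.40).

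These ratios depended on how cells were weighted or chosen, and the direction for ACTA2 turned. When each cell's own UMIs per 10000 were averaged, so that every cell counted equally, the log2 ratio was -0.83 for ACTA2, -1.97 for ACTG2, -0.75 for CNN1 and -1.33 for PCP4. MYH11 kept its direction, at 0.49. When each cell was thinned to 1000 UMIs, which left out 369 CT-LCG and 1039 FT-LCG shallower cells, ACTA2 stood at -0.88 (-1.19 to -0.56; 143 and 217 UMIs) and ACTG2 at -2.27 (-2.66 to -1.88; 154 and 89 UMIs). In cells with at least 1000 detected genes the ratios went the other way, to 2.07 for ACTA2 and 3.27 for ACTG2 (23 and 715 UMIs). This limit chooses cells. The 8 CT-LCG cells with 9 or more ACTG2 UMIs had 539 to 777 genes and were all left out. The 10 such FT-LCG cells had 2442 to 4565 genes and were all kept. The direction of the library difference of ACTA2 thus differed with the weighting and the choice of cells. Among the 5 genes only MYH11 was higher in FT-LCG under each of these 4 settings, with a thinned ratio of 0.16 whose interval (-0.45 to 0.84) includes 0.

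**Figure D1:**
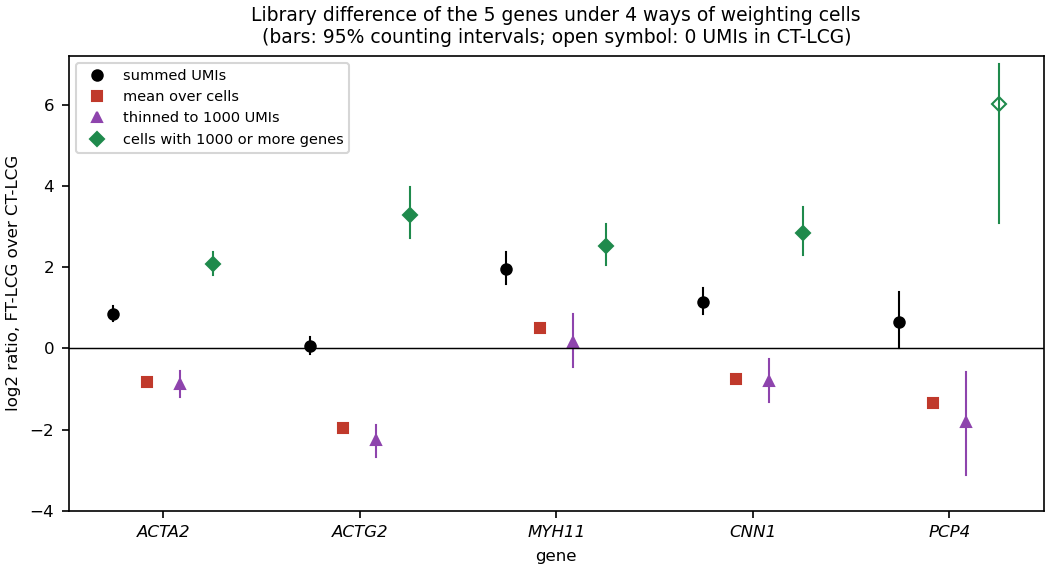
Log2 ratio of FT-LCG over CT-LCG (vertical axis) for each gene, from summed UMIs (black circles), the mean over cells (red squares, no interval), cells thinned to 1000 UMIs (purple triangles) and cells with at least 1000 genes (green diamonds); bars are 95% counting intervals. ACTA2 lies at 0.85 with summed UMIs and at -0.83 with the mean over cells, and the open diamond marks PCP4, with 0 UMIs in CT-LCG, whose interval has no upper end.

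A handful of cells held most of the UMIs. In each library 4 cells held 50% of all ACTG2 UMIs. One FT-LCG cell alone had 180 of the 777, or 23.2%. For ACTA2 50% of the UMIs lay in 6 CT-LCG and 16 FT-LCG cells. For MYH11 and PCP4 in CT-LCG 3 cells each did. At the same time, of the 453 FT-LCG cells with ACTA2, 312 had a single UMI, as had 122 of the 141 with ACTG2. Without the top cell of each library the log2 ratio was 0.99 for ACTA2 and -0.03 for ACTG2.

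A cell was called contractile when it had at least 3 UMIs over the 5 genes, from at least 2 of them. There were 21 such cells of 3443 in CT-LCG, 0.610% (0.378 to 0.931%), and 44 of 9608 in FT-LCG, 0.458% (0.333 to 0.614%). The 2 intervals overlapped. The CT-LCG cells were shallow, with a median of 1353 UMIs, and the FT-LCG cells deeper, with 7320.5. After thinning to 1000 UMIs, 0.390% and 0.210% of the cells passed. The rule takes no account of depth, so deep cells can pass it at a low level. FT-LCG cells of 147473, 95060 and 66343 UMIs had 0.271, 0.421 and 0.452 UMIs of the 5 genes per 10000. The FT-LCG cell with the highest level had 354. Such deep cells are contractile by the rule only. Since the 5 genes chose the cells, the shares of their UMIs that the cells held are a description. The contractile cells held 90.5% (CT-LCG) and 83.9% (FT-LCG) of all ACTG2 UMIs. They held 73.7% and 53.1% of ACTA2, 67.8% and 86.4% of MYH11, 75.5% and 82.3% of CNN1, and 91.3% and 77.7% of PCP4. Of the 5 genes ACTA2 had the largest share outside these cells in FT-LCG.

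The contractile cells were split by their epithelial and mural genes. A cell was called epithelial at 50 or more UMIs of KRT14 and KRT5 together per 10000, the keratin pair of basal keratinocytes and myoepithelial cells, and mural at 2 or more UMIs of RGS5, a regulator of G-protein signalling abundant in pericytes. In CT-LCG 9 of 21 cells were epithelial (42.9%, 21.8 to 66.0%), 2 were mural (9.52%, 1.17 to 30.4%) and 10 were neither. In FT-LCG 21 of 44 were epithelial (47.7%, 32.5 to 63.3%), 2 mural (4.55%, 0.555 to 15.5%), 1 both and 20 neither. These shares are no measure of enrichment. The median level of the 2 keratins was 45.2 per 10000 in all other CT-LCG cells and 202 in all other FT-LCG cells. In the contractile cells it was 40.6 and 51.2. Most of the other FT-LCG cells thus passed the gate too. The keratin gate was also not free of background. Of the cells of the endothelial-like cluster, which should lack these keratins, 19.3% in CT-LCG against 25.3% for FT-LCG passed it, at median depths of 1788 and 2699 UMIs. The RGS5 gate was cleaner, with 0 of 57 (up to 6.27%) and 2 of 154 endothelial-like cells past it. At a gate of 20 per 10000, 16 of 21 and 31 of 44 contractile cells passed, and at 100 per 10000, 4 and 14 did. Of the endothelial-like cells 52.6% and 48.1% passed the gate of 20, so that gate does not mark an epithelial cell, and cells past it are named by the gate only.

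A limit of 9 UMIs of ACTG2, chosen after the values were seen, set apart 8 CT-LCG and 10 FT-LCG cells that together held 79.4% and 80.6% of all ACTG2 UMIs. In CT-LCG these cells had 9 to 44 ACTG2 UMIs (median 24) and 2 to 32 of ACTA2 (median 15). In FT-LCG they had 18 to 180 of ACTG2 (median 52) and 24 to 111 of ACTA2 (median 65). All 18 had CNN1, with 3 to 12 UMIs in CT-LCG and 16 to 128 in FT-LCG. PCP4 was found in 7 of the 8 and 10 of the 10, and these cells held 73.9% and 74.1% of the gene's UMIs. The 5 genes together took 199 to 546 of every 10000 UMIs in the CT-LCG cells and 102 to 354 in the FT-LCG cells. The ranges overlapped, and in cells as shallow as those of CT-LCG the limit of 9 UMIs by itself requires a high level.

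MYH11 set the ACTG2-rich cells of the 2 libraries apart. All 10 FT-LCG cells had it, with 12 to 115 UMIs, 539 in all or 45.7 per 10000 (41.9 to 49.7). Of the 8 CT-LCG cells 3 had it, with 4 UMIs in all, 4.03 per 10000 (1.10 to 10.3). CNN1 stood at 51.4 and 39.3 per 10000, and ACTA2 and PCP4 at 126 and 17.1 in the CT-LCG cells against 53.9 and 7.04 in the FT-LCG cells. The levels of ACTG2 itself (195 and 53.1) are not compared, since the limit of 9 UMIs chose the cells. Over clusters ACTA2, CNN1 and PCP4 followed ACTG2 closely (correlations of 0.98, 0.99 and 0.99), so their levels in these cells are a description too. The CT-LCG cells had 951 to 1513 UMIs and the FT-LCG cells 7165 to 20256, so the depths did not overlap, and the part of depth in these differences was not tested.

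In the ACTG2-rich cells 2 mural markers were at 0 and some epithelial ones were present. RGS5 and NOTCH3, the receptor that mural cells need to mature, had 0 UMIs in all 18 cells, and so had COL1A1, COL3A1 and DCN, the collagen and decorin genes of fibroblasts. A count of 0 there allows up to 3.03 UMIs per 10000 in CT-LCG but 0.254 in FT-LCG. The mural cells, 2 in each library, stood at 18.3 and 57.9 for RGS5 and at 4.82 and 2.63 for NOTCH3. RGS5 had chosen these cells, so its level there is set by the gate, and 1 FT-LCG cell held 108 of its 110 UMIs. NOTCH3 had 10 UMIs in the mural cells of both libraries together. KRT8, a keratin of simple and glandular epithelia, was present in 4 of 8 CT-LCG and 10 of 10 FT-LCG cells, at 6.05 (2.22 to 13.2) and 13.9 (11.9 to 16.2) per 10000. The endothelial-like cells of the same libraries stood at 0.0474 and 0.0335 per 10000 for KRT8. KRT19, another keratin of glands, had 0 UMIs in all 18 ACTG2-rich cells. TP63, the transcription factor of basal and myoepithelial cells, was present in 1 of 8 and 7 of 10, with 3 and 14 UMIs. It stood at 3.03 and 1.19 per 10000 against 0.190 and 0.134 in endothelial-like cells. The CT-LCG level rested on 1 cell and was no higher than a count of 0 allows there. TAGLN (transgelin) and MYL9 (the myosin regulatory light chain), which were not used to choose the cells, were present in all 18, at 187 and 65.6 per 10000 in CT-LCG and 130 and 54.5 in FT-LCG. VIM, the intermediate filament of mesenchymal and some myoepithelial cells, was present in 6 of 8 and 10 of 10. DES, the muscle intermediate filament desmin, was at 0 in the CT-LCG cells and present in 5 of the 10 FT-LCG cells. The median VIM level of the ACTG2-rich cells was 24.0 (CT-LCG) and 33.3 (FT-LCG) per 10000. Summed VIM over the cells that were not contractile came to 4.72 and 3.50. KRT14 and KRT5 together, summed over the ACTG2-rich cells, came to 80.7 and 61.7 per 10000. Endothelial-like cells had 15.4 and 33.5 of these keratins, and the cells that were not contractile 75.4 and 231.

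**Figure D2:**
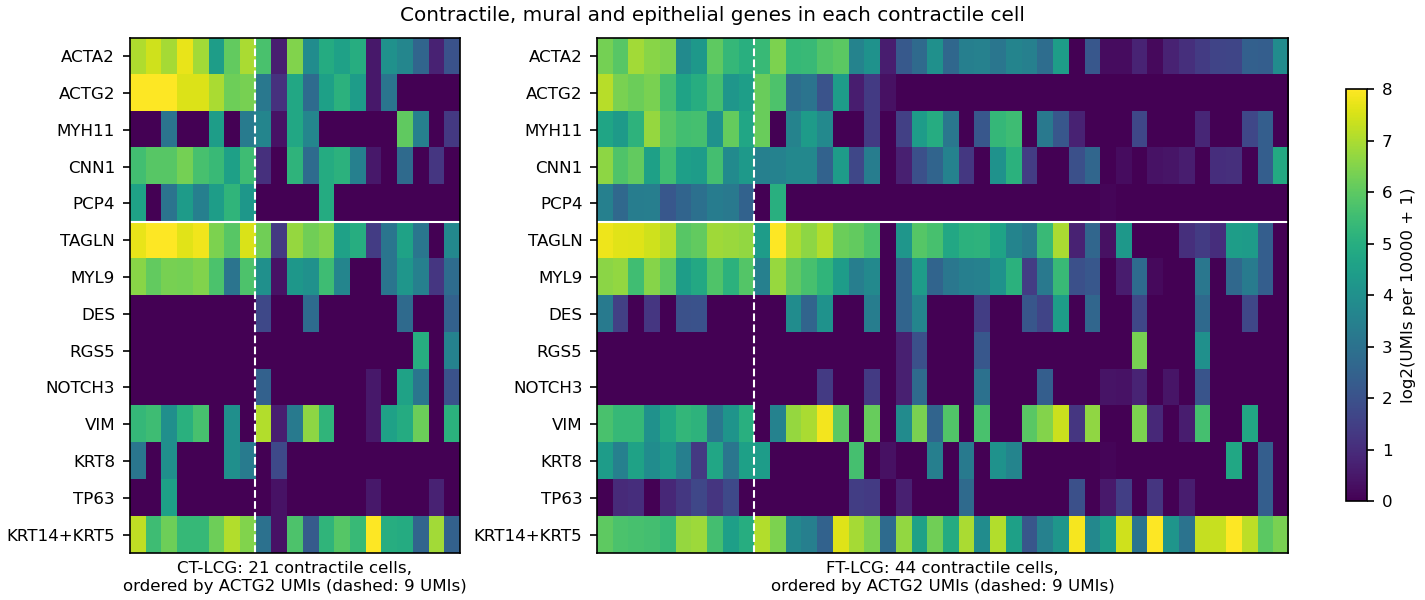
Heat map of the 21 CT-LCG (left) and 44 FT-LCG (right) contractile cells (columns, ordered by ACTG2 UMIs) for the 5 genes above the white line and for mural and epithelial genes below it, in log2(UMIs per 10000 + 1). The 8 and 10 cells left of the dashed lines have 9 or more ACTG2 UMIs, and RGS5 and NOTCH3 are at 0 in all of them.

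RNA freed from lysed cells adds its genes to every droplet of a library in 1 proportion, so the basal keratins were also read as a ratio. KRT14 and KRT5 together were set against KRT10, a keratin of the suprabasal epidermis. In endothelial-like cells the ratio was 0.174 (0.154 to 0.195) in CT-LCG and 1.30 (1.23 to 1.37) in FT-LCG. In the ACTG2-rich cells it was 0.952 (0.692 to 1.31) and 6.5 (5.32 to 8.0), above the ratio of the endothelial-like cells in both libraries. The proportion in free RNA itself was not measured, and the part of free RNA in these keratins was not tested. In the cells called neither it was 0.558 (0.375 to 0.821) and 5.25 (4.34 to 6.39). That group was mixed, and 3 and 6 of its cells were ACTG2-rich. In FT-LCG it also held a cell of 147473 UMIs, contractile by 4 UMIs, with KRT14 and KRT5 at 20.9 per 10000. Such a deep cell weighs heavily in the sum, so the value does not speak for the other cells called neither. In the mural cells it was 0.200 (0.0598 to 0.532) and 1.29 (0.604 to 2.79), intervals that hold the values of the endothelial-like cells. KRT10 itself stood at 84.7 per 10000 in the ACTG2-rich cells of CT-LCG, close to the 89.0 of the endothelial-like cells there, and at 9.5 against 25.9 in FT-LCG. Of the ACTG2-rich cells 5 of 8 and 4 of 10 passed the keratin gate of 50, and their levels were 39.6 to 148 and 22.1 to 113 per 10000, so this gate cut through the group, while all 18 passed the gate of 20.

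**Figure D3:**
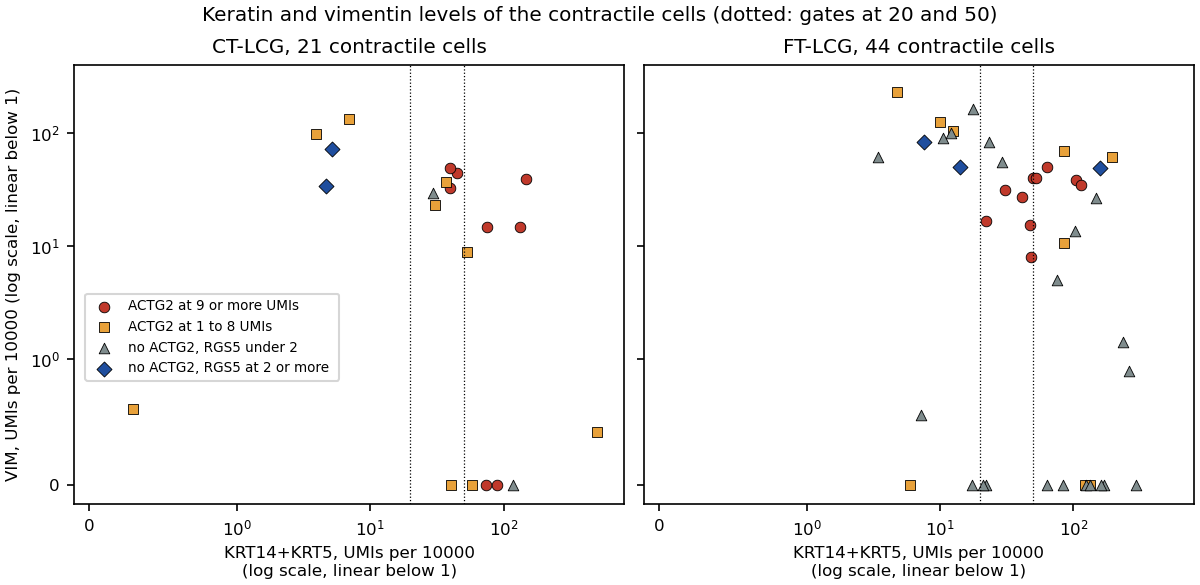
KRT14 and KRT5 together (horizontal axis) against VIM (vertical axis), both in UMIs per 10000 on log scales, for each contractile cell, with symbols for ACTG2 and RGS5 counts and dotted lines at the keratin gates of 20 and 50. The ACTG2-rich cells (red circles) lie at 22.1 to 148 of keratin, and the cells with 2 or more RGS5 UMIs (blue diamonds) at 4.61 to 14.0 but for the FT-LCG cell at 157.

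Some contractile cells had little keratin, much VIM and DES. Among cells with at least 20 UMIs of the 5 genes, a limit chosen after the values were seen, 1 CT-LCG cell and 3 FT-LCG cells were of this kind. The CT-LCG cell had 44 ACTA2, 7 ACTG2 and 10 MYH11 UMIs, with 6.95 per 10000 of the 2 keratins and 134 of VIM. The 3 FT-LCG cells had 35, 26 and 17 ACTA2 UMIs and 2, 4 and 3 of ACTG2, with VIM at 230, 105 and 126 per 10000. PCP4, KRT8 and RGS5 were at 0 in all 4, and each had DES, with 2 UMIs in the CT-LCG cell and 10, 9 and 2 in the FT-LCG cells. NOTCH3 had 4 UMIs in the CT-LCG cell and 1 in the FT-LCG cell with 35 ACTA2 UMIs. The CT-LCG cell also had 1 UMI of COL1A1, 3 of COL3A1 and 2 of DCN. These 4 cells were called neither. One further FT-LCG cell above the limit had 19 ACTA2, 1 ACTG2 and 86 KRT8 UMIs and no VIM.

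ACTG2 and RGS5 were not found in the same contractile cell. Of the contractile cells with ACTG2, 0 of 17 in CT-LCG and 0 of 19 in FT-LCG had an RGS5 UMI, whereas 2 of 4 and 5 of 25 of those without ACTG2 had one. RGS5 was rare throughout. At least 1 UMI was found in 12 CT-LCG and 36 FT-LCG cells, and 2 or more in 5 and 12. Of the 36, 2 cells that were not contractile also had an ACTG2 UMI. One FT-LCG cell held 108 of the 262 UMIs. In the 5 and 12 cells with 2 or more RGS5 UMIs, ACTG2 and PCP4 had 0 UMIs in both libraries. ACTA2 had 7 and 15 UMIs there, in 3 and 5 of the cells, and MYH11 had 5 and 6. CNN1 had 0 and 4. These RGS5 cells thus held 7 of 281 and 15 of 1558 ACTA2 UMIs.

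The proportion of the 2 actins differed between the kinds of cell. The ratio of ACTG2 to ACTA2 UMIs was 1.61 (1.19 to 2.19) in epithelial contractile cells of CT-LCG and 1.29 (1.10 to 1.51) in those of FT-LCG. One FT-LCG cell held 180 of the 376 ACTG2 UMIs there. Of these epithelial cells 5 of 9 and 5 of 21 had more ACTG2 than ACTA2. In the cells called neither the ratio was 0.794 (0.608 to 1.03) and 0.524 (0.451 to 0.607). In mural cells 0 UMIs of ACTG2 stood beside 4 and 7 of ACTA2, with upper limits of 1.51 and 0.694, so the CT-LCG mural value overlapped those of the other kinds. The contractile cells past the keratin gate of 20 stood at 1.37 (1.11 to 1.71) and 0.894 (0.803 to 0.996), and all the others at 0.246 (0.126 to 0.446) and 0.0909 (0.0424 to 0.174). The order was the same in both libraries at both gates, and the ratio was higher in CT-LCG in each of these kinds but the mural one.

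Marker lists were then summed over the same cells, each as UMIs of the whole list per 10000. None holds any of the 5 genes, the pericyte list holds RGS5, and the basal epidermal list holds KRT14 and KRT5, which had set the gates. A few deep cells weigh heavily in these sums. Of the 55519 UMIs of the CT-LCG cells past the keratin gate of 20, cells contractile by 3 UMIs had 23963 and 14306. Of the 528137 in FT-LCG, cells contractile by 3 or 4 UMIs had 147473, 95060 and 66343. Of the smooth muscle list (TAGLN, MYL9, TPM1, TPM2, MYLK and others) all 20 genes were measured. The contractile cells past the keratin gate of 20 stood at 109.5 in CT-LCG against 129 for FT-LCG, the other contractile cells at 89.2 and 92.0, and all other cells at 13.7 and 15.5. The pericyte list (RGS5, NOTCH3, PDGFRB, KCNJ8 and others, 11 of 12 measured) stood at 1.26 and 2.18 in the cells past the gate and at 12.4 and 17.8 in the other contractile cells. The gland secretory list (KRT8, KRT18, KRT19, KRT7 and others, 9 of 12 measured) stood at 2.88 and 13.0 in the cells past the gate, at 24.6 and 1.48 in the others, and at 0 in the mural cells of both libraries. Of the 141 UMIs behind the 24.6, 1 cell of 33305 UMIs, contractile by 7 UMIs, had 78 of KRT19, 15 of KRT18 and 8 of KRT8. Behind the 13.0 of FT-LCG, 1 cell with 1 ACTG2 UMI had 126 of KRT19 and 86 of KRT8.

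The myoepithelial list (TP63, OXTR, LAMA3, LAMB3, ITGA6 and others, 11 of 12 measured) did not set the cells apart from other epithelium. It stood at 28.3 and 28.7 in the contractile cells past the gate of 20, at 2.09 and 21.2 in the others and at 44.2 and 49.2 in all other cells. Basal keratinocytes are known to express many of its genes. The fibroblast list (8 of 8 measured) stood at 2.16 and 0.587 in those past the gate and 2.09 and 4.24 in the other contractile cells, against 2.51 and 1.97 in all other cells. Skeletal muscle genes (6 of 8 measured) were at 0 in all contractile cells. Macrophage, mast, T cell and melanocyte lists were each at or under 0.523 in both kinds and both libraries, and the endothelial list at or under 1.21, though at 9.47 in the FT-LCG mural cells. Schwann genes stood at 0.901 and 1.4 in cells past the gate and 3.66 and 4.3 in the others, and dermal papilla genes at or under 0.523.

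Keratinocyte lists were uneven across libraries. The suprabasal or granular list stood at 352 in the contractile cells past the gate of 20 in CT-LCG and at 73.0 in those of FT-LCG, below the 628 and 466 of all other cells. The basal epidermal list stood at 271 and 121, and 1 CT-LCG cell of 23963 UMIs, contractile by 3 UMIs, had 505 UMIs of KRT14 and KRT5 per 10000. The order turned in cells with at least 5 UMIs of the 5 genes, a limit for these lists that was chosen after the values were seen and that leaves this cell out: there the list stood at 75.2 in CT-LCG, below the 103 of FT-LCG. The outer root sheath or bulge list was at 2.16 and 33.6, the hair shaft and inner root sheath list at 12.6 and 20.1, and the cycling list at 1.80 and 4.20. In FT-LCG 5 cells of 27879 to 147473 UMIs passed the contractile limit with 3 or 4 UMIs, and such deep cells weigh heavily in summed levels.

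Between epithelial and mural contractile cells, with gates of 50 and 2, members above 2-fold were read against 32.2% of 655 genes higher in epithelial and 20.8% lower. ACTG2 had 492 UMIs in the 30 epithelial and 0 in the 4 mural cells, CNN1 326 and 0, and PCP4 54 and 0. A count of 0 in the mural cells allows up to 2.89 UMIs per 10000 in CT-LCG or 1.58 in FT-LCG, and the epithelial cells stood at 25.05 and 12.1 for ACTG2, 7.77 and 9.3 for CNN1 and 2.81 and 1.32 for PCP4, so the absence of PCP4 was within what depth allows. ACTA2 had 364 and 11 UMIs, a log2 ratio of 1.38 (1.85 in CT-LCG against 1.25 for FT-LCG). MYH11 lay in opposite directions in the libraries, at a log2 ratio of -1.71 for CT-LCG against 1.4 for FT-LCG. Since the cells were chosen by these genes, the ratios are a description.

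The genes outside the 5 with the largest ratios toward the epithelial cells included CXCL14, KRT6A, LOC102177275, KRT8 and AHCY. A single cell held 58.1% of the UMIs of CXCL14, a chemokine, and 62.3% of those of KRT6A, a keratin of the outer root sheath. The rank of both rested on FT-LCG, where they had 735 and 669 UMIs in epithelial cells, while CT-LCG had 2 of each and a log2 ratio of 0.16. KRT8 had 188 UMIs in epithelial and 0 in mural cells, with 86 of them in 1 cell. Toward the mural cells they were RGS5, C28H10orf10, LOC106502686, C15H11orf96, ADAMTS4, CDC42EP2, APOE and SPP1. RGS5 had chosen the cells. A single cell held 28.5% (APOE) to 86.1% (C28H10orf10) of the UMIs of each of these genes, and 83.1% of those of RGS5. ADAMTS4, a protease of proteoglycans, had 41 UMIs in epithelial and 106 in mural cells, and APOE, an apolipoprotein made by many mesenchymal cells, 121 and 230.

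With the keratin gate at 20 the comparison rested on 47 contractile cells past the gate and 18 others, and the background was 17.6% of 1240 genes higher and 9.19% lower. ACTG2 had 848 and 24 UMIs, log2 ratios of 3.88 in CT-LCG against 4.11 for FT-LCG. CNN1 had 570 and 26, at 3.96 and 2.66. PCP4 had 108 and 0. ACTA2 had 868 and 167, with log2 ratios of 1.44 and 0.87, so both kinds had it. MYH11 had 596 and 56 and lay in opposite directions in the libraries, at -0.23 in CT-LCG against 2.24 for FT-LCG. KRT8, with 295 and 9, did so too, at -0.34 and 5.76. The cells were chosen by the 5 genes, so the ratios of these genes are a description. SFRP5, a secreted Wnt antagonist, had 136 UMIs in the cells past the gate and 0 in the others, and CTGF, a matricellular protein, 243 and 1. NR2F2, a nuclear receptor of veins and mesenchyme, had 16 and 74 UMIs, and WFDC1 18 and 99. A single cell held 16.7% to 27.4% of the UMIs of each of these 4 genes, which were picked among the 8 largest ratios each way. In CT-LCG SFRP5 and CTGF rested on 2 UMIs each.

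The cells were also clustered without the 5 genes, KRT14, KRT5 and RGS5, which gave 20 clusters. The contractile cells did not form a cluster of their own, and the 2 libraries put them in different ones. In FT-LCG 24 of 44 were members of the fibroblast-like cluster (106 CT-LCG and 129 FT-LCG cells), 9 of them ACTG2-rich, and 8 in a cluster led by NTM and HS6ST2. In CT-LCG 10 of 21, all 8 ACTG2-rich cells among them, lay in a shallow cluster led by ACTG2 and WNT11 (49 CT-LCG, 104 FT-LCG cells), and 6 were fibroblast-like. WNT11 had 0 UMIs in the contractile cells of CT-LCG and in the ACTG2-rich cells of both libraries, so the name describes the cluster and not these cells. ACTA2 in the cluster led by ACTG2 and WNT11 stood at 19.8 per 10000 (16.7 to 23.4) in CT-LCG and at 0.343 (0.220 to 0.510) in FT-LCG. The 39 CT-LCG cells of this cluster that were not contractile had 1 ACTA2 UMI, 0.172 per 10000 (0.00434 to 0.956). The cluster with the highest ACTA2 level was therefore not the same in the 2 libraries. Of the UMIs of the 5 genes together, the cluster led by ACTG2 and WNT11 held the most in CT-LCG, 426 of 700, and the fibroblast-like cluster the most in FT-LCG, 2369 of 3793.

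**Figure D4:**
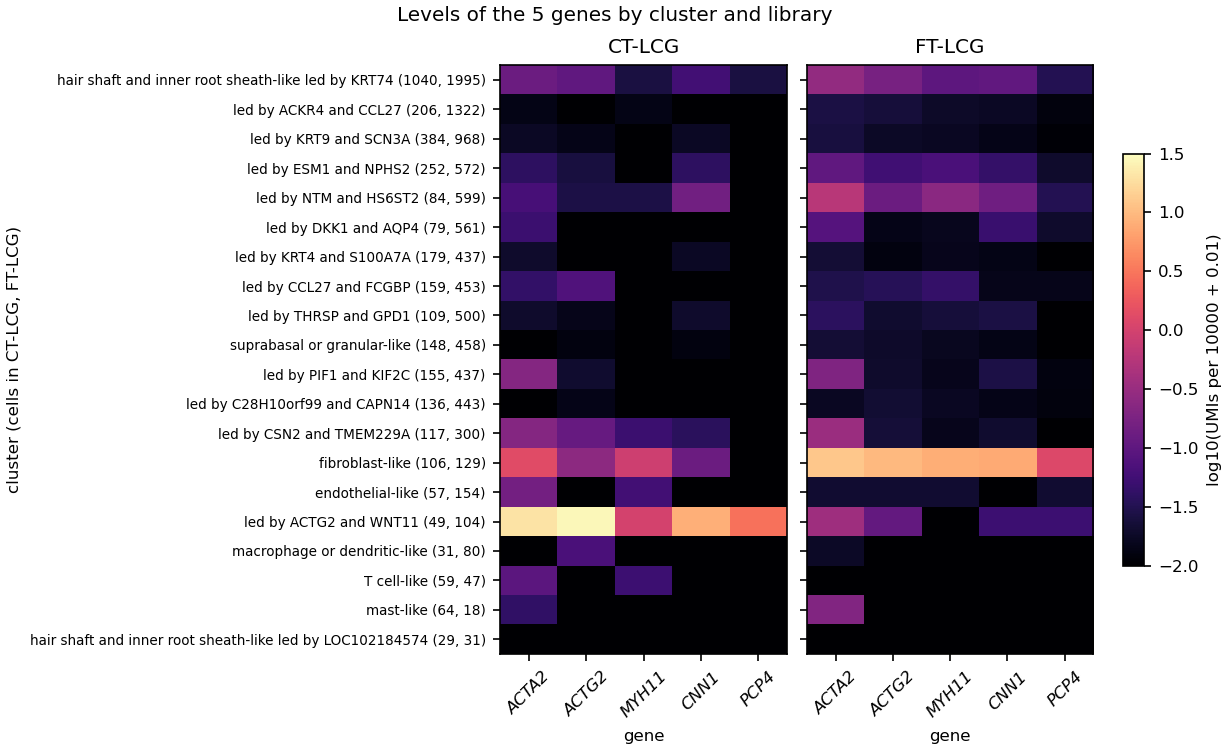
Levels of the 5 genes, log10(UMIs per 10000 + 0.01), in the 20 clusters (rows, with cells of CT-LCG and FT-LCG in brackets) of each library (panels). The bright row is the cluster led by ACTG2 and WNT11 in CT-LCG (ACTA2 19.8) and the fibroblast-like cluster in FT-LCG (ACTA2 12.5).

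In the fibroblast-like cluster of both libraries the contractile cells held most ACTA2 UMIs and few of the collagen and DCN UMIs. The 5 genes chose these cells, so their share of the UMIs of the 5 genes is largely set by the rule and is a description. Collagen and DCN were not part of the rule. The cluster stood at 1.32 ACTA2 UMIs per 10000 (1.02 to 1.68) in CT-LCG and 12.5 (11.6 to 13.4) in FT-LCG. Its 24 contractile FT-LCG cells, 18.6% of the 129, held 734 of the 758 ACTA2 UMIs (96.8%), 587 of 588 of ACTG2, 493 of 495 of MYH11, 451 of 455 of CNN1 and 73 of 73 of PCP4. The same 24 cells had 44 of the 8494 UMIs of COL1A1, COL3A1 and DCN. In CT-LCG 6 contractile cells held 60 of the 65 ACTA2 UMIs, and 1 of them held 44. These 6 had 17 of the 3988 collagen and DCN UMIs. Read the other way, the 43 CT-LCG cells with at least 5 UMIs of COL1A1, COL3A1 and DCN held 48 of the 65 ACTA2 UMIs (73.8%) and 9 of the 12 of ACTG2, and the 57 such FT-LCG cells held 30 of the 758 (3.96%). The CT-LCG cell with 44 ACTA2 UMIs was one of the 43, with 6 collagen and DCN UMIs. The 73.8% thus rested on 1 cell just past the limit of 5. In the cells of the cluster that were not contractile, ACTA2 stood at 0.107 per 10000 (0.0349 to 0.251) in CT-LCG and 0.588 (0.376 to 0.874) in FT-LCG, where 6 of 105 cells had it.

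**Figure D5:**
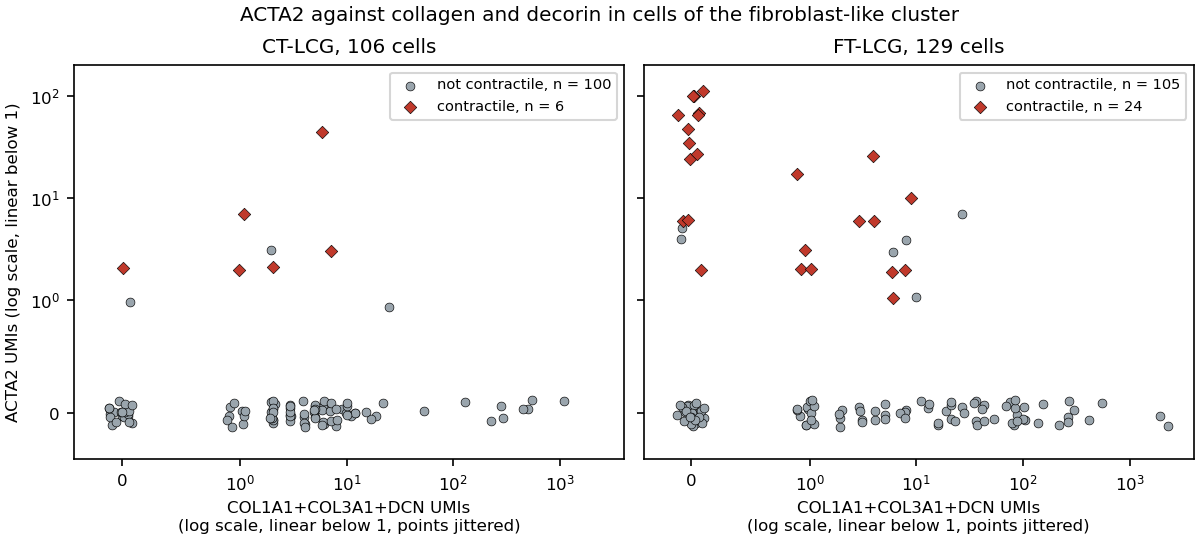
UMIs of ACTA2 (vertical axis) against UMIs of COL1A1, COL3A1 and DCN together (horizontal axis), both on log scales that are linear below 1, for each cell of the fibroblast-like cluster; red diamonds are contractile cells. In FT-LCG the 24 contractile cells, which ACTA2 and the other 4 genes had chosen, hold 734 of 758 ACTA2 UMIs and 44 of 8494 collagen and DCN UMIs.

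Outside the contractile cells the summed levels of the 5 genes were low, and ACTA2 had the most UMIs there. It stood at 0.0266 per 10000 in CT-LCG (74 UMIs) and 0.0862 in FT-LCG (730 UMIs), a log2 ratio of 1.68 (1.35 to 2.06). Among the genes with at least 100 UMIs there, which leave out PCP4 (2 and 25 UMIs), ACTA2 was the 1 member at least 2-fold higher in FT-LCG, against 8.2% of 12983 genes, and 0 were 2-fold lower, against 7.32%. In FT-LCG 219 of the 730 UMIs lay in the cluster led by NTM and HS6ST2, at 0.466 per 10000 (0.407 to 0.532), in 60 of 591 cells, with up to 26 in 1 cell. A further 127 lay in a cluster led by PIF1 and KIF2C, both genes of cell division, at 0.180 (0.150 to 0.214), and 120 in a cluster led by CSN2 and TMEM229A, at 0.315 (0.261 to 0.376), where 24.5% of the cells had a UMI. The hair shaft and inner root sheath-like cluster led by KRT74 had 66, at 0.251 (0.194 to 0.320), in 65 of 1994 cells. In CT-LCG these 4 clusters stood at 0.0524 (0.0108 to 0.153; 3 UMIs), 0.203 (0.124 to 0.314), 0.159 (0.0793 to 0.284) and 0.103 (0.0548 to 0.176). The endothelial-like cells stood at 0.142 (0.0293 to 0.415) in CT-LCG and 0.0112 (0.000283 to 0.0623; 1 UMI) in FT-LCG. In FT-LCG these 4 clusters were above the level of these cells, which should lack the gene, whereas in CT-LCG the intervals overlapped. The depths differed, at a median of 1113 UMIs in the FT-LCG cells of the cluster led by KRT74 and 2699 in the endothelial-like ones. That cluster also had CNN1 in 24 and MYH11 in 23 of the FT-LCG cells, as single UMIs. The part of free RNA in its ACTA2 level was not tested. ACTG2 outside the contractile cells was at 23 and 125 UMIs, of which 9 and 40 were single UMIs in the cluster led by KRT74. In CT-LCG 1 such outside cell had 10 MYH11 UMIs and another had 8 of CNN1. Cells with many UMIs of 1 member alone were outside because the rule required 2 members.

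Within the contractile cells the sign of the ACTA2 ratio changed with the number of UMIs required per cell, and at the higher number its interval included 0. The intervals of PCP4 included 0 at either number. ACTA2 stood at 18.3 per 10000 in CT-LCG against 12.2 for FT-LCG, a log2 ratio of -0.59, and ACTG2 at 19.5 and 9.63, a log2 ratio of -1.02. PCP4 was at -0.56 (-1.23 to 0.23), CNN1 at 0.29 (-0.06 to 0.68) and MYH11 at 1.34. One gene, MYH11, was at least 2-fold higher in FT-LCG, against 14.8% of 1040 genes, and one, ACTG2, at least 2-fold lower, against 3.94%. The median over the genes compared was 0.27. The cells were chosen by these 5 genes at a fixed number of UMIs, which asks a higher level of the shallower CT-LCG cells. The ratios within them are therefore a description. With at least 5 UMIs of the 5 genes per cell, a limit chosen for these ratios after the values were seen, 17 and 31 cells were left. Their ACTA2 UMIs fell little, from 207 to 201 in CT-LCG and from 828 to 805 in FT-LCG. The total UMIs of the cells fell from 112929 to 66857 and from 676870 to 234948. The log2 ratios were then 0.19 (-0.04 to 0.42) for ACTA2, -0.24 for ACTG2, 2.13 for MYH11, 1.10 for CNN1 and 0.20 (-0.48 to 0.98) for PCP4. Among epithelial contractile cells the values were -0.74 for ACTA2, -1.06 for ACTG2, 2.24 for MYH11 (7 against 238 UMIs), 0.24 for CNN1 and -1.13 for PCP4. There MYH11 was at least 2-fold higher against a background of 17.8% of 437 genes with at least 100 UMIs and ACTG2 lower against 5.95%, while PCP4 (13 and 41 UMIs) was under that limit. Of the 46312 UMIs of the 9 CT-LCG cells, 2 cells contractile by 3 UMIs each had 23963 and 14306. With at least 5 UMIs, in 7 and 14 cells, the values were -1.95 for ACTA2, -2.25 for ACTG2, 1.03 for MYH11, -0.88 for CNN1 and -2.33 for PCP4. In the mural cells ACTA2 stood at 3.85 (4 UMIs) and 3.68 (7 UMIs) per 10000, too few to compare. The summed ACTA2 of FT-LCG was thus higher over all cells and in cells that were not contractile.

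Other genes differed more between the epithelial contractile cells of the 2 libraries. The 5 with the largest ratios toward FT-LCG were KRT19, LOC102179515, CXCL14, LOC102180443 and KRT6A, and toward CT-LCG they were LOC102169149, S100A8, LOC102174022, KRTDAP and LOC108634769. KRT19, a keratin of glands and of the outer root sheath, had 0 UMIs in CT-LCG against 270 for FT-LCG, 126 of them in 1 cell. S100A8 and KRTDAP, genes of the differentiated epidermis, had 153 and 273 UMIs in CT-LCG and 4 and 147 in FT-LCG. Between the 2 and 2 mural cells, TMSB4X, S100A4, APOE, RGS5 and C15H11orf96 were highest toward FT-LCG and LOC108634769, FOS, HSP90AA1, UBB and JUNB toward CT-LCG, where RGS5 had 19 UMIs in CT-LCG against 110 for FT-LCG, 108 of them in 1 cell. Of 39 genes with enough UMIs there, 23.1% were 2-fold higher in FT-LCG and 7.69% lower, and none of the 5 contractile genes was among the 39.

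The genes with the profile most like the 5 were led by TPM2 and MYL9. Likeness was the Pearson correlation with the mean standardized profile of the 5 genes over 39 cluster-by-library profiles of at least 20 cells, among 13009 genes. The profiles share 2 libraries and a few contractile cells decide most of them, so the values are a description. The 10 closest were TPM2 (0.98), MYL9 (0.98), LOC102168428 (0.97), MUSTN1 (0.97), MYLK (0.95), PPP1R12B (0.95), RASL12 (0.94), PPP1R14A (0.93), TAGLN (0.92) and ETV4 (0.92). TPM2 is a tropomyosin, MYLK the kinase of the myosin light chain, PPP1R12B a subunit of the phosphatase that reverses it, and PPP1R14A an inhibitor of that phosphatase. ETV4 is an ETS transcription factor.

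The 5 genes were not alike in their neighbours. MYL9, TPM2 and MUSTN1 were closest to ACTA2, LOC102168428, MYL9 and MUSTN1 to ACTG2, and LOC102168428, MYL9 and TPM2 to CNN1. MYH11 was closest to OGN (0.98), a small proteoglycan of connective tissue, SYNM (0.97), the muscle intermediate filament synemin, and LOC102175889 (0.96). OGN was among the leading genes of the fibroblast-like cluster. Likeness over clusters does not show that both genes lie in the same cells. PCP4 was closest to ETNK2, PPP1R1A and ETV4, at 0.92, 0.92 and 0.91. Among themselves ACTG2 and PCP4 were nearest, at 0.99, and MYH11 and PCP4 farthest, at 0.68. The other correlations of MYH11 within the 5 were 0.84 with ACTA2, 0.76 with ACTG2 and 0.84 with CNN1.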

How the data were processed

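Skin libraries of 2 goats were analysed from 1 matrix of UMI counts. The authors made these counts with Cell Ranger (3.0.2 per the file headers) and kept cells with over 500 genes, using Seurat 3.1.1 per the labels. The genome build of the counts is not given in the sources used here. Of 17299 barcodes, 13051 cells in the deposited list were used, and the library of each cell came from it. The matrix was used as deposited, without removal of doublets or free RNA. Levels were summed UMIs per 10000, and ratios had 0.5 UMIs added.

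Clusters used log-normalized counts, 2000 variable genes chosen without the 5 genes, KRT14, KRT5 and RGS5, 10 principal components, Harmony, 20 neighbours and Leiden at resolution 1.0 (scanpy 1.11.5, leidenalg 0.10.2). Clusters were named from marker lists. No test was run, as each fibre type had 1 library, and the intervals cover counting error only. Genes were named by rules of size: the 5 genes, the 10 nearest profiles and 3 per gene, the 8 largest ratios each way between epithelial and mural cells (at least 50 UMIs, same sign in both libraries) and the 5 largest between libraries (at least 100 UMIs). One gene that these rules name is not reported here. The genes and lists were chosen with earlier results of these data known. Scripts were tested on simulated data.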

Additional observations from a re-analysis of the deposited data

Results flagged for a closer look

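Contractile barcodes were also found among those that the authors' cell list had left out, all of which had 500 or fewer genes and which no comparison above used. In CT-LCG 19 of 2659 such barcodes met the same rule, 0.715% (0.431 to 1.11%), and in FT-LCG 3 of 1589, 0.189% (0.0390 to 0.551%). The library of these barcodes was read from their suffix. Their median depth was 718 and 583 UMIs. ACTA2 stood at 0.434 per 10000 in the left-out barcodes of CT-LCG and 0.331 in those of FT-LCG, above the 0.101 and 0.182 of the kept cells, and ACTG2 at 0.333 and 0.281. Of the 19 CT-LCG barcodes 10 passed the keratin gate of 50 per 10000, and of the 3 in FT-LCG all 3 did. With all barcodes counted, 40 of 6102 in CT-LCG (0.656%) and 47 of 11197 in FT-LCG (0.420%) were contractile.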

How the results depend on the processing

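Of 61 values recomputed under other settings, 39 stayed within the counting interval of the reported value, 16 left it and 6 whose interval had not included 0 turned direction. With the mean over cells the log2 ratio of FT-LCG over CT-LCG was -0.83 for ACTA2, -1.97 for ACTG2, 0.49 for MYH11, -0.75 for CNN1 and -1.33 for PCP4. With cells thinned to 1000 UMIs it was -0.88, -2.27, 0.16, -0.80 and -1.81. With cells of at least 1000 genes it was 2.07, 3.27, 2.51, 2.83 and 6.01, the last a fitted value on 0 and 101 UMIs that is no bound. The cause of these differences was not tested. The 8 ACTG2-rich CT-LCG cells had 951 to 1513 UMIs and 539 to 777 genes, so the limit of 1000 genes left all of them out. Leaving out the top 5% by Scrublet doublet score moved none of the 11 values it was tried on past its interval. The share of contractile cells past the keratin gate in CT-LCG and FT-LCG was 76.2% and 70.5% at a gate of 20 and 19.05% and 31.8% at 100. The contractile share of FT-LCG was 0.323% with at least 5 UMIs and 0.210% after thinning. Without Harmony 60.6% of the 5 genes' UMIs of both libraries lay in 1 cluster, against 55.5%. Of 22 values added after seeing the data, 10 left their interval and 1 turned direction. With all barcodes ACTA2 was 0.58 and ACTG2 -0.15. With at least 5 UMIs per contractile cell ACTA2 turned to 0.19 (-0.04 to 0.42), an interval that includes 0. ACTG2, MYH11 and CNN1 were -0.24, 2.13 and 1.10, and in epithelial contractile cells the 5 genes were -1.95, -2.25, 1.03, -0.88 and -2.33. The depth of 1 library per type limits every comparison, and no paired analysis was possible because each fibre type had 1 library.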
